A study of Homo sapiens with 4 samples.

Results

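Vimentin and 9 surface or matrix genes that mark mesenchymal cells were followed in SK-N-SH cells, an established human neuroblastoma line, after forced expression of the long non-coding RNA *RP5-998N21.4*. The members are a list of gene symbols, with no expression threshold, and were picked with earlier results of these data known. They are *VIM*, *CD44*, *AXL*, *THY1*, *NT5E*, *ENG*, *PDGFRA*, *PDGFRB*, *EGFR* and *FN1*, and all 10 were found among the 57820 genes of the count table. The overexpression (OE) group held 2 libraries of cells carrying a lentivirus with *RP5-998N21.4*. The vector control group held 2 libraries of otherwise wild-type cells carrying the same kind of lentivirus with no insert. The EF1a promoter drove the insert, and both groups share viral transduction. The labels do not state that replicates were separate cultures, so the p-values measure only the spread between these samples, which may be technical.

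Neuroblastoma cells are known to take either an adrenergic state, marked by sympathetic transcription factors and catecholamine genes, or a mesenchymal state, marked by vimentin, fibronectin and a range of receptors. SK-N-SH is a mixed line that holds cells of both states. Vimentin is the intermediate filament of mesenchymal cells and fibronectin is a glycoprotein of their matrix. The other members sit in the plasma membrane as adhesion molecules (CD44, THY1), an ectoenzyme (NT5E, also called CD73), a co-receptor of the TGF-beta family (ENG) and receptor tyrosine kinases (AXL, PDGFRA, PDGFRB, EGFR). In bulk RNA, fewer cells of one state and less RNA per cell cannot be told apart.

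The libraries held 23785164 to 28307591 counts. On these raw totals, 3 counts, the limit that a count of 0 allows, correspond to 0.106 to 0.126 counts per 1000000 (CPM). The targeted RNA *RP5-998N21.4* had 2407 and 2808 counts in OE, against 32 and 33 in vector control. Levels are given as CPM on normalized library sizes. Of the 11458 genes that averaged 10 CPM or more, 769 (6.71%) were over 2-fold apart between the vector control replicates and 841 (7.34%) between the OE replicates. Of the 10 members, *THY1* was over 2-fold apart between vector control replicates, and *VIM* and *PDGFRB* between OE replicates.

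None of the 10 members was a differentially expressed gene (DEG), defined as adjusted p under 0.01 and an absolute Log2FC (log2 fold change, OE over vector control) above 0.5 in edgeR's quasi-likelihood test. The same criterion called 0 of the 20528 genes tested (0%). The overexpressed *RP5-998N21.4* itself missed it, with Log2FC 6.11 and an adjusted p of 0.0109, the lowest of all genes tested, so a member that was not called is not shown to be unchanged. At an unadjusted p under 0.05, edgeR gave 1 member higher in OE (*AXL*) and 4 members lower in OE (*CD44*, *NT5E*, *ENG* and *EGFR*). The background was 10.1% of all tested genes higher and 10.7% lower. With DESeq2 and the same DEG criterion, 2 members were called lower (*CD44* and *EGFR*) and 0 higher, beside 4.42% of all tested genes called lower and 4.35% called higher. All 10 members passed the filter on low counts. Their Log2FC was positive for 3 and negative for 7, with a median of -0.25, beside a median of 0.01 over all genes tested.

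The members fell into 3 kinds by the order of their libraries. Each OE library was under each vector control library for *CD44*, *NT5E*, *ENG*, *PDGFRA* and *EGFR*, which is 5 of 10 members against 27.6% of all tested genes. Each OE library was over each vector control library for *VIM* and *AXL*, 2 of 10 members against 27.8%. The place of *VIM* depends on transcript ENST00000478317, counted only in OE replicate 1. Without that transcript *VIM* was at 218 CPM in OE replicate 1, below both vector control libraries, and its groups overlapped. The libraries of *THY1*, *PDGFRB* and *FN1* overlapped. With 2 libraries against 2, an exact permutation test of a single gene cannot give a two-sided p under 0.333.

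**Figure D1:**
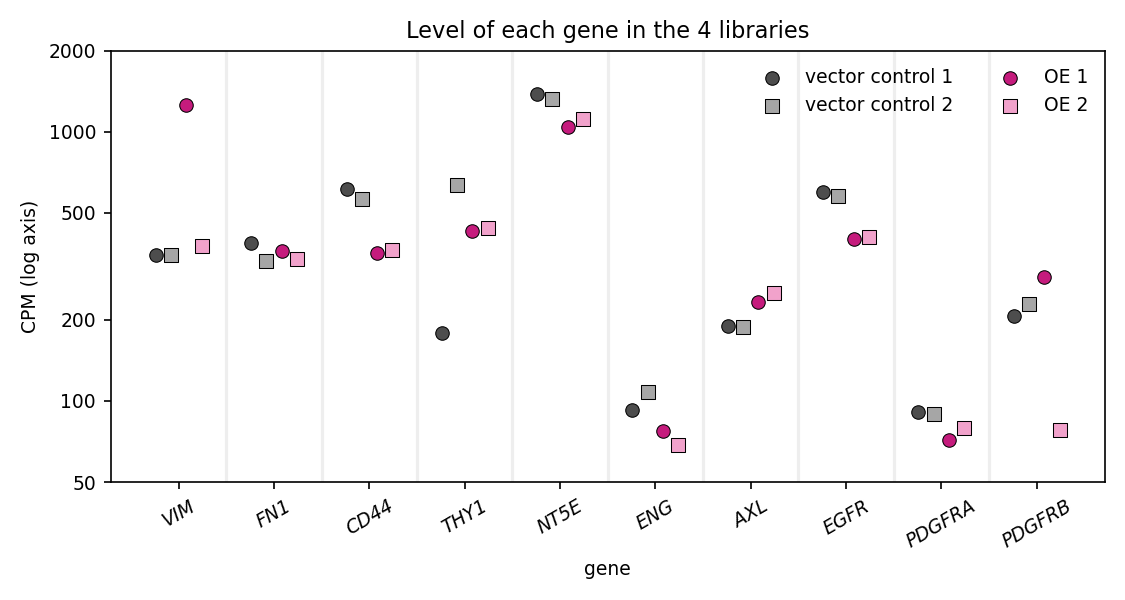
Level of each member in every library. The vertical axis gives CPM on a log scale, each point is 1 library, and colours separate vector control from OE. *CD44*, *NT5E* and *EGFR* show tight, separate pairs, while *VIM* and *PDGFRB* are split between the OE libraries and *THY1* between the vector control libraries.

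Per kilobase of each gene's Ensembl canonical transcript, *NT5E* had the highest level in vector control cells, with 379 CPM per kb. It was followed by *VIM* (162 CPM per kb), *CD44* (108), *THY1* (90.4), *EGFR* (59.2), *FN1* (42.8), *AXL* (40.05), *PDGFRB* (38.2), *ENG* (34.0) and *PDGFRA* (14.2). The vector control libraries of *FN1* and *AXL*, of *AXL* and *PDGFRB*, and of *PDGFRB* and *ENG* overlapped on this scale, so these neighbours had no settled order. *THY1* ranged from 39.7 to 141 CPM per kb between its vector control libraries and overlapped *CD44*, *EGFR*, *FN1*, *AXL* and *PDGFRB*. For *VIM*, *CD44*, *THY1*, *ENG* and *FN1*, the leading transcript in vector control was not the canonical one. Its length was 2666 bases against 2154 for *VIM*, 4288 against 5431 for *CD44* and 2427 against 4502 for *THY1*. The order among *VIM*, *CD44* and *THY1* therefore depends on the length used. In OE cells *VIM* had the highest mean at 378 CPM per kb, beside 303 for *NT5E*. The OE libraries of *VIM* were at 582 and 174 CPM per kb, on either side of those of *NT5E* at 293 and 313. The first rank of *VIM* rests on ENST00000478317, a transcript of unknown length with 82.6% of *VIM* counts in OE replicate 1 and 0 in each other library. Without that transcript *VIM* was at 218 CPM in OE replicate 1, beside 1254 CPM with it.

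*VIM* (ENSG00000026025.9, hg19 chr10:17270240-17279592, plus strand) encodes vimentin. It was at 348 and 350 CPM in the vector control libraries, 1254 in OE replicate 1 and 376 in OE replicate 2. The vector control pair was nearly level, whereas 1 OE library was 3.34-fold above the other. The Log2FC was 1.22 with a standard error (SE) of 0.628 and an adjusted p of 0.367 in edgeR. It was 0.11 without OE replicate 1 and 1.85 without OE replicate 2, with an adjusted p of 0.0431 in the latter case, and over all alternatives the adjusted p ranged from 0.0431 to 0.700. A fit without OE replicate 2 leaves OE replicate 1 as the only OE library, which is assumed to vary like the vector control pair.

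The table counts reads per transcript, and the transcripts of *VIM* differed between libraries more than the gene total did. Transcript ENST00000478317, which is not in the annotation used here, held 25991 counts in OE replicate 1, 82.6% of the gene's counts (95% Wilson interval 82.2 to 83.0%), and 0 in each other library. Intervals and limits on shares cover counting error only, and replicates differed by more than that. Without it, *VIM* was at 218 CPM in OE replicate 1 beside 376 in OE replicate 2, the OE libraries lay on either side of the vector control pair, and Log2FC was -0.23. The coding transcript ENST00000544301 held 22.9% and 35.9% of *VIM* counts in vector control and 17.4% and 94.2% in OE. A transcript annotated as subject to nonsense-mediated decay, ENST00000469543, held 77.1% and 61.6% in the vector control libraries, 0% in OE replicate 1 and 5.78% in OE replicate 2. That transcript led in both vector control libraries, whereas the OE libraries were led by 2 different transcripts. The overlapping antisense gene *VIM-AS1* had 100 to 209 counts per library, and the use of strand in counting is not stated, so reads of the pair cannot be told apart.

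*FN1* (ENSG00000115414.14, chr2:216225163-216300796, minus strand) encodes fibronectin. It was at 386 and 332 CPM in the vector control libraries and 362 and 337 CPM in the OE libraries. The groups overlapped, with Log2FC -0.04, SE 0.0999 and adjusted p 0.866. Removing one library at a time moved Log2FC between -0.15 and 0.07.

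Fibronectin transcripts can include or skip the extra domains EDB and EDA, 2 alternative exons that are typical of embryonic, wound and tumour fibronectin. The EDB exon lies at chr2:216257654-216257926 (273 bases) and the EDA exon at chr2:216245534-216245803 (270 bases). The junction sequences below tell the included from the skipped form, and are written on the coding strand of GRCh37 (hg19) with the bases after the junction in capitals.

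FN1 into EDB: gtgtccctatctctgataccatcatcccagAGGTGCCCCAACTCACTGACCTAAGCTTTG
FN1 EDB skipped: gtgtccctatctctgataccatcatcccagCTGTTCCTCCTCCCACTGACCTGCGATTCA
FN1 into EDA: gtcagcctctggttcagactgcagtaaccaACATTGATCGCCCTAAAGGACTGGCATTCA
FN1 EDA skipped: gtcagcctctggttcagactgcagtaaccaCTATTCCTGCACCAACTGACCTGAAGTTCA

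Transcripts that skip both exons, all counted as ENST00000421182, held 6859 and 5459 counts in vector control against 8203 and 8145 in OE. These were 76.4% and 69.9% of *FN1* counts in vector control and 90.3% and 83.5% in OE, so both OE shares lay above both vector control shares. The groups overlapped once only transcripts that span both exons were counted, with a skipped share of 89.7% and 83.6% in vector control and 90.9% and 84.9% in OE. Transcripts with both EDB and EDA held 8.80% and 13.7% in vector control and 8.99% and 14.8% in OE, which overlapped. The retained-intron transcript ENST00000492816 held 199 and 773 of these counts in vector control and 84 and 1004 in OE. The other transcripts with both exons, a choice made after seeing the data, held 6.58% and 3.79% of all *FN1* counts in vector control and 8.07% and 4.54% in OE. With ENST00000492816 taken out of the total, the skipped share among spanning transcripts was 92.1% and 94.9% against 91.8% and 94.8%. Both measures overlapped between the groups. Counts on transcripts that span neither exon made up 14.8% and 16.4% in vector control and 0.726% and 1.66% in OE, which did not overlap. One of these short transcripts, ENST00000460217, held 883 and 549 counts in vector control and 0 in both OE libraries. The rule by which reads shared by overlapping transcripts were assigned is not given in the sources used here.

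*CD44* (ENSG00000026508.12, chr11:35160429-35253949, plus strand) encodes the receptor for hyaluronan. Its level was 613 and 565 CPM in the vector control libraries and 354 and 365 CPM in the OE libraries. Both OE libraries were below both vector control libraries, and the gap between the groups was larger than the spread within either pair. The Log2FC was -0.71 (SE 0.065), with p 0.000559 and adjusted p 0.0615 in edgeR. DESeq2 gave an adjusted p of 1.77e-22, and over the alternatives it ranged from 1.77e-22 to 0.296. Leaving out each library in turn kept Log2FC between -0.77 and -0.65.

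Standard CD44 joins the constant exons directly and skips the variable region at chr11:35211613-35236398. The sequence of that junction is shown because nearly all *CD44* counts lay on transcripts that contain it, with the bases after the junction in capitals.

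CD44 standard: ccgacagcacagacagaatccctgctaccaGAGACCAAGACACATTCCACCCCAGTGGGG

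Transcripts with the standard junction held 96.9% and 94.3% of *CD44* counts in vector control and 98.9% and 96.9% in OE. Those with bases of the variable region held 3.11% and 5.72% in vector control and 1.08% and 3.13% in OE. The ranges of the latter overlapped by a narrow margin. The splicing regulator *ESRP1*, which favours variable exons in epithelial cells, had 0 counts in every library, and *ESRP2* had at most 19.

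*THY1* (ENSG00000154096.9, chr11:119286186-119295695, minus strand) encodes CD90, a small adhesion molecule anchored by a lipid. It was at 179 and 635 CPM in the vector control libraries and 428 and 440 CPM in the OE libraries. The OE pair was level and lay inside the wide range of the vector control pair, which was 3.55-fold apart. The Log2FC was 0.09 (SE 0.649, adjusted p 0.953), and removing vector control replicate 1 gave -0.55, whereas removing vector control replicate 2 gave 1.27. *USP2-AS1*, which overlaps *THY1* on the other strand, had 8 and 15 counts in vector control and 64 and 82 in OE. Reads of this pair cannot be told apart without strand.

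The 2 vector control libraries of *THY1* also differed by transcript. The coding transcript ENST00000284240 had 0 counts in vector control replicate 1, which allows a share of up to 0.0721%, and 5883 in vector control replicate 2. It had 4182 and 4779 counts in the OE libraries, or 39.0% and 37.6%, close to the 39.4% of vector control replicate 2. The rest lay almost wholly on ENST00000584021, a single exon at chr11:119289530-119291956 annotated as a retained intron that covers exons 2 and 3 of the coding transcript. That transcript held 99.0% and 60.3% of the counts in vector control and 60.8% and 62% in OE. Vector control replicate 1 was therefore the library that stood apart for *THY1*.

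*NT5E* (ENSG00000135318.7, chr6:86159302-86205509, plus strand) encodes the ectoenzyme that turns extracellular AMP into adenosine. It was at 1379 and 1318 CPM in the vector control libraries and 1043 and 1116 CPM in the OE libraries. The groups did not overlap. The Log2FC was -0.32 (SE 0.0551, p 0.00531, adjusted p 0.103). DESeq2 gave an adjusted p of 9.70e-07, with a range of 9.70e-07 to 0.308 over the alternatives, and the absolute Log2FC stayed under 0.5. The main transcript ENST00000257770 held 97.0% to 97.8% of counts in all 4 libraries.

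*ENG* (ENSG00000106991.9, chr9:130577292-130616937, minus strand) encodes endoglin, which helps TGF-beta and BMP9 reach their signalling receptors. It was at 92.7 and 108 CPM in the vector control libraries and 77.3 and 68.3 CPM in the OE libraries. The OE pair was below the vector control pair, with Log2FC -0.46 (SE 0.127), p 0.025 and adjusted p 0.181. DESeq2 gave an adjusted p of 0.00633, with a range of 0.00633 to 0.361 over the alternatives. An antisense gene that overlaps *ENG*, ENSG00000225032, had 90 and 159 counts in vector control and 204 and 223 in OE, and reads of the pair cannot be told apart without strand.

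Endoglin has a long and a short form, known as L- and S-endoglin, that differ in the cytoplasmic tail. The short form keeps a segment of 136 bases at chr9:130578086-130578221 that is spliced out of the long form. The coding sequence of the short form is shorter for that reason, 625 residues against 658. Both sequences start with the same 30 coding bases in lower case, and capitals mark the bases after the exon end that the long form uses. The capitals of both begin with GT and differ from the next base on. The short form ends at the stop codon TGA.

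ENG short form: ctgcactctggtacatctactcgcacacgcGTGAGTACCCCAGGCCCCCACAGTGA
ENG long form: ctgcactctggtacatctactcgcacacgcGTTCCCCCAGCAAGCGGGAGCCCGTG

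The short form ENST00000344849 held 2156 of 2158 *ENG* counts in vector control replicate 1 and 2529 of 2529 in vector control replicate 2. The same transcript had 0 counts in both OE libraries, which allows shares of up to 0.155% and 0.152%. The long form ENST00000373203 had 0 counts in both vector control libraries, with shares of up to 0.139% and 0.119% allowed, and 1935 of 1939 and 1977 of 1977 counts in the OE libraries. When each gene was reduced to its most counted transcript, *ENG* was represented by the short form and its Log2FC was -14.30 (adjusted p 0.0546 in edgeR), beside adjusted p from 0.00633 to 0.361 over all alternatives. That value is fitted on 0 counts in OE and gives no bound. *ENG* was the only 1 of 10 members whose leading transcript was shared within each condition and different between conditions. Among 10689 genes with at least 2 listed transcripts and 100 counts in each library, this held for 208, or 1.95%. The stricter pattern seen here, each leading transcript at 0 counts in the other condition, held for 78 genes, or 0.730%. The leading transcript also differed between the replicates of one condition in 1288 genes (12%) for vector control and 1308 genes (12.2%) for OE, and the way reads were assigned to forms that share nearly all their exons is not given in the sources used here. The submitters' processing notes name StringTie 2.1.6, a transcript assembly and quantification tool, with no statement of its role.

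**Figure D2:**
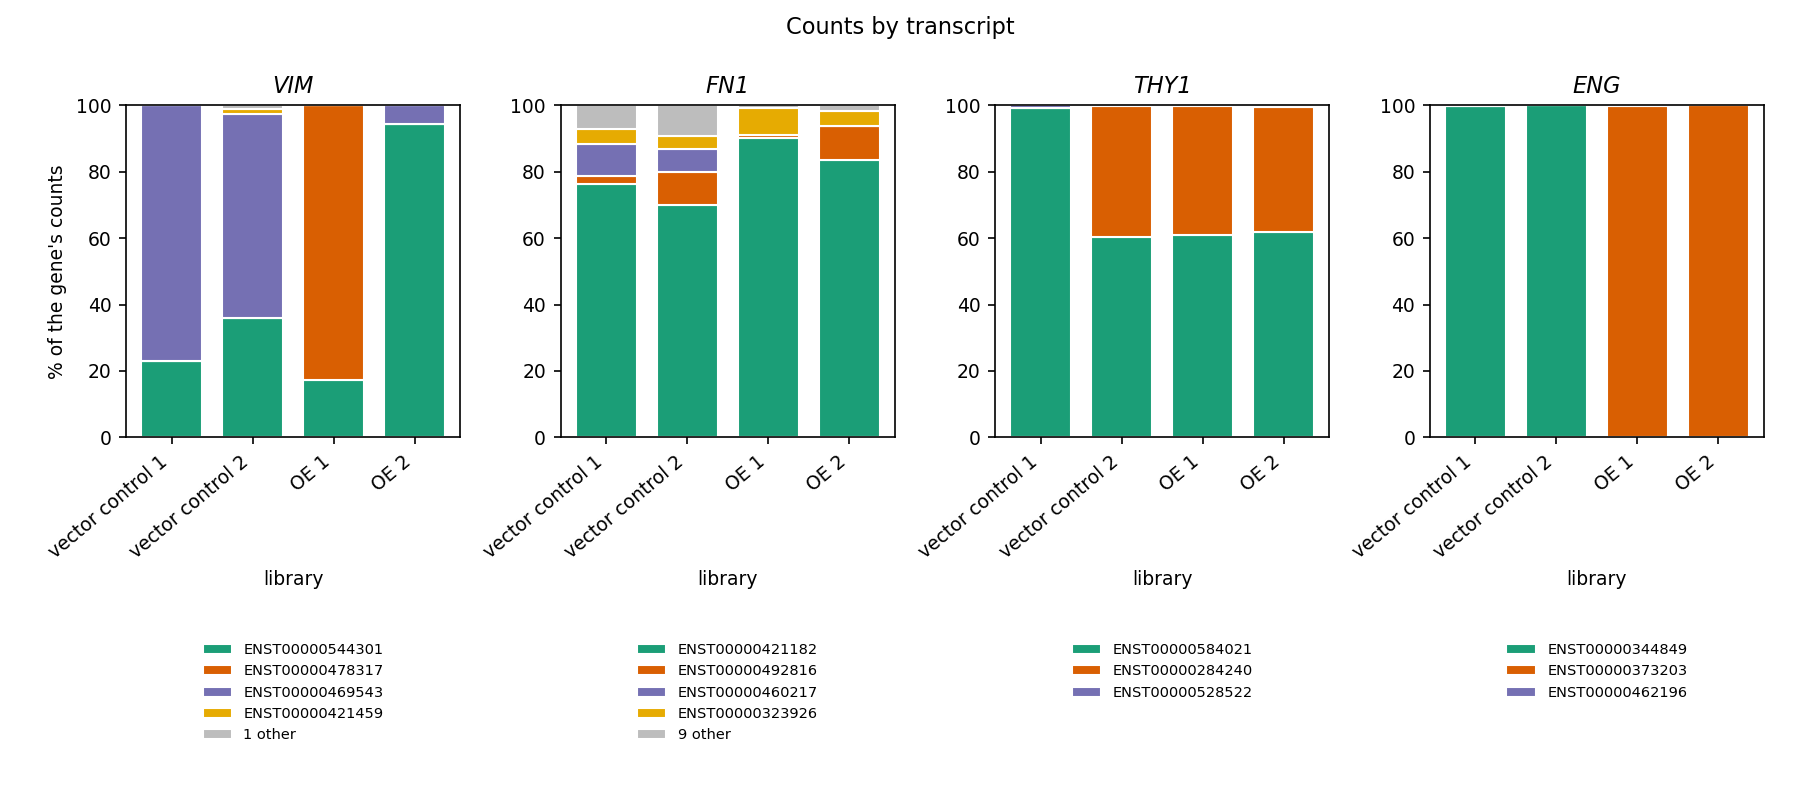
Share of each gene's counts by transcript in the 4 libraries, for *VIM*, *FN1*, *THY1* and *ENG*. The vertical axis gives percent of the gene's counts and each colour is a transcript. *ENG* changes wholly from one transcript to the other between groups, while in *VIM* and *THY1* single libraries stand apart.

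*AXL* (ENSG00000167601.7, chr19:41725128-41767671, plus strand) encodes the receptor tyrosine kinase for the ligand GAS6. It was at 190 and 188 CPM in the vector control libraries and 233 and 251 CPM in the OE libraries. The vector control libraries were 1.01-fold apart and both OE libraries were above them. The Log2FC was 0.36 (SE 0.0701, p 0.00814, adjusted p 0.118). DESeq2 gave an adjusted p of 1.02e-05, with 1.02e-05 to 0.316 over the alternatives. *AXL* was the only member that was higher at an unadjusted p under 0.05, and its transcript ENST00000301178 held 99.5% to 99.9% of counts throughout.

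*EGFR* (ENSG00000146648.11, chr7:55086710-55279321, plus strand) encodes the epidermal growth factor receptor. It was at 598 and 575 CPM in the vector control libraries and 401 and 407 CPM in the OE libraries. The replicates were 1.04-fold apart in vector control and 1.01-fold in OE, and all OE values were below all vector control values. The Log2FC was -0.54 (SE 0.0504, p 0.000608, adjusted p 0.0618). DESeq2 gave an adjusted p of 8.84e-29, with a range of 8.84e-29 to 0.296 over the alternatives. Transcript ENST00000275493 held 94.9% to 95.6% of counts in every library, and ENST00000455089, which lacks exon 4, held 4.09% to 4.96%. The overlapping antisense gene *EGFR-AS1* had 56 to 86 counts per library, and without strand its reads cannot be told from those of *EGFR*.

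*PDGFRA* (ENSG00000134853.7, chr4:55095447-55164412, plus strand) encodes a receptor of platelet-derived growth factors. It was at 91.3 and 89.2 CPM in the vector control libraries and 71.9 and 79.3 CPM in the OE libraries. The OE pair lay lower, with Log2FC -0.26 (SE 0.0934), p 0.0556 and adjusted p 0.252.

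*PDGFRB* (ENSG00000113721.9, chr5:149493402-149535435, minus strand) encodes the related beta receptor. It was at 206 and 229 CPM in the vector control libraries, 289 in OE replicate 1 and 77.8 in OE replicate 2. One OE library lay above and the other below both vector control libraries, 3.71-fold apart. The Log2FC was -0.25 (SE 0.674, adjusted p 0.872), -1.48 without OE replicate 1 and 0.41 without OE replicate 2. One transcript, ENST00000261799, held 98.9% to 99.8% of *PDGFRB* counts in all libraries, so this split was not one between transcripts.

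**Figure D3:**
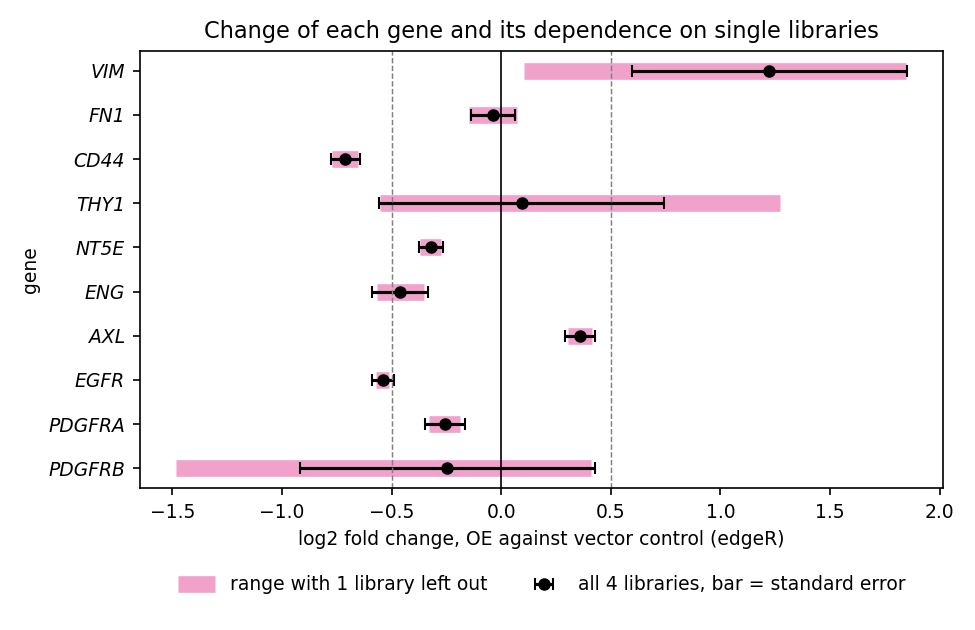
Log2FC of each member (OE over vector control, edgeR) with its standard error, and the values obtained when each library is left out in turn. *CD44*, *EGFR*, *NT5E*, *ENG*, *PDGFRA*, *AXL* and *VIM* stay on one side of 0, *VIM* over a range of 0.11 to 1.85, whereas *THY1*, *PDGFRB* and *FN1* cross it. Without transcript ENST00000478317, a fit that is not drawn, the Log2FC of *VIM* was -0.23.

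The ligands, partners and effectors of the members were taken as 58 companion genes in 8 lists, of which 48 were tested. None was a DEG in edgeR (0%, as for all genes), and 5 of the 48 were called lower and 0 higher in DESeq2, beside 4.42% and 4.35% of all tested genes. In edgeR at an unadjusted p under 0.05, 3 companions were higher and 12 lower, beside 10.1% and 10.7% of all tested genes, shares against which the counts of each list stand too. The median Log2FC of the tested companions was -0.21.

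Among the partners of vimentin, all 4 tested genes were lower in both OE libraries, an order that 27.6% of all tested genes had. Of these, *GFAP* had 18 counts in each vector control library and 6 and 16 in OE, a low level at which counting error is wide. Nestin (*NES*), an intermediate filament of neural progenitors, was at 526 and 515 CPM in vector control and 325 and 310 CPM in OE, with Log2FC -0.71 and adjusted p 0.0507. Synemin (*SYNM*), a filament protein that assembles with vimentin, was at 111 and 100 CPM against 78.3 and 81.6 (Log2FC -0.40, adjusted p 0.148). Plectin (*PLEC*), which links filaments to other structures, had the highest level of the list, with 1204 and 1208 CPM in vector control and 856 and 1157 CPM in OE, Log2FC -0.26.

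Of 10 tested partners of CD44, 1 was higher and 4 were lower at an unadjusted p under 0.05 (10.1% and 10.7% of all tested genes). The hyaluronan synthase *HAS3* was at 28.4 and 29.3 CPM in vector control and 3.51 and 10.96 CPM in OE (Log2FC -1.99, SE 0.607, adjusted p 0.203), and its OE libraries differed widely. The hyaluronan receptor *HMMR* was at 21.0 and 22.6 CPM against 15.7 and 17.5 (Log2FC -0.39, adjusted p 0.209). Moesin (*MSN*), which ties CD44 to actin, was at 697 and 684 CPM against 490 and 498 (Log2FC -0.48, SE 0.045, adjusted p 0.0615). The sheddase *ADAM10* was at 177 and 162 CPM against 119 and 121 (Log2FC -0.50, adjusted p 0.097). Ezrin (*EZR*), a relative of moesin and the highest of the remaining genes in the list, was at 78.2 and 73.4 CPM against 74.6 and 81.0, so its groups overlapped. Osteopontin (*SPP1*), a secreted ligand of CD44, had 4 and 6 counts in vector control and 16 and 15 in OE (Log2FC 1.41, adjusted p 0.240), a low level at which counting error is wide.

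The AXL list had 4 tested genes and none with an unadjusted p under 0.05. Its ligand *GAS6* was at 78.9 and 73.6 CPM in vector control and 64.0 and 70.6 CPM in OE, with Log2FC -0.18. The OE libraries of the ligand were below those of vector control, while those of *AXL* were above.

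For the adenosine pathway around NT5E, 7 genes were tested, with 1 higher and 2 lower at an unadjusted p under 0.05, against the same 10.1% and 10.7%. *ENTPD1* (CD39), which makes the AMP that NT5E consumes, was at 64.0 and 63.5 CPM in vector control and 78.5 and 76.3 CPM in OE (Log2FC 0.28, adjusted p 0.192). The adenosine receptor *ADORA2A* was at 40.6 and 46.2 CPM against 34.7 and 33.6 (Log2FC -0.34, adjusted p 0.215). *DPP4* (CD26), a peptidase that binds adenosine deaminase, was at 9.75 and 10.9 CPM against 4.30 and 4.84 (Log2FC -1.17, adjusted p 0.080). Among the rest, the nucleoside transporter *SLC29A1* had the highest mean of those without a p under 0.05, with 37.7 and 38.9 CPM in vector control and 42.4 and 39.1 CPM in OE.

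Of 8 tested genes of the endoglin pathway, 2 were lower at an unadjusted p under 0.05 (10.7% of all tested genes). The type II receptor *TGFBR2* was at 151 and 137 CPM in vector control and 101 and 88.6 CPM in OE (Log2FC -0.60, adjusted p 0.111), and *BMPR2* at 181 and 170 CPM against 145 and 147 (Log2FC -0.27, adjusted p 0.170). Both receptors and *ENG* itself were thus lower in each OE library. *TGFB1* was at 379 and 397 CPM against 356 and 336, with an unadjusted p of 0.0597, while *GDF2*, which encodes BMP9, had 0 counts in all libraries.

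Of the 4 ligands of the PDGF receptors, 1 was higher and 1 lower at an unadjusted p under 0.05 (10.1% and 10.7% of all tested genes). *PDGFA* was at 36.5 and 40.3 CPM in vector control and 46.1 and 50.7 CPM in OE (Log2FC 0.33, adjusted p 0.228), and *PDGFD* at 18.4 and 22.1 CPM against 10.9 and 10.4 (Log2FC -0.93, adjusted p 0.0956). *PDGFC* was at 93.2 and 30.9 CPM in vector control and 31.0 and 100 in OE, so its replicates differed more than its groups.

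In the EGFR list, 5 of 10 genes were tested and none had an unadjusted p under 0.05. The ligands *EGF*, *AREG*, *EREG* and *BTC* had 0 counts in every library. The feedback inhibitor *ERRFI1* was the highest in the list, at 72.4 and 73.8 CPM in vector control and 78.1 and 77.6 CPM in OE (Log2FC 0.09). A pair of further ligands was chosen after the values were seen. *HBEGF* was at 68.1 and 64.7 CPM in vector control and 52.8 and 59.5 CPM in OE (Log2FC -0.24, unadjusted p 0.0906, adjusted p 0.312), lower in both OE libraries. *TGFA* had 0 counts in both vector control libraries and 13 and 5 in OE.

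Of 6 receptors for fibronectin and THY1, 1 was lower at an unadjusted p under 0.05 (10.7% of all tested genes). The integrin subunit *ITGB3* was at 43.5 and 35.5 CPM in vector control and 20.5 and 18.9 CPM in OE (Log2FC -0.999, SE 0.148, adjusted p 0.0893). Its partner *ITGAV* was at 658 and 592 CPM against 578 and 596 (Log2FC -0.09).

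**Figure D4:**
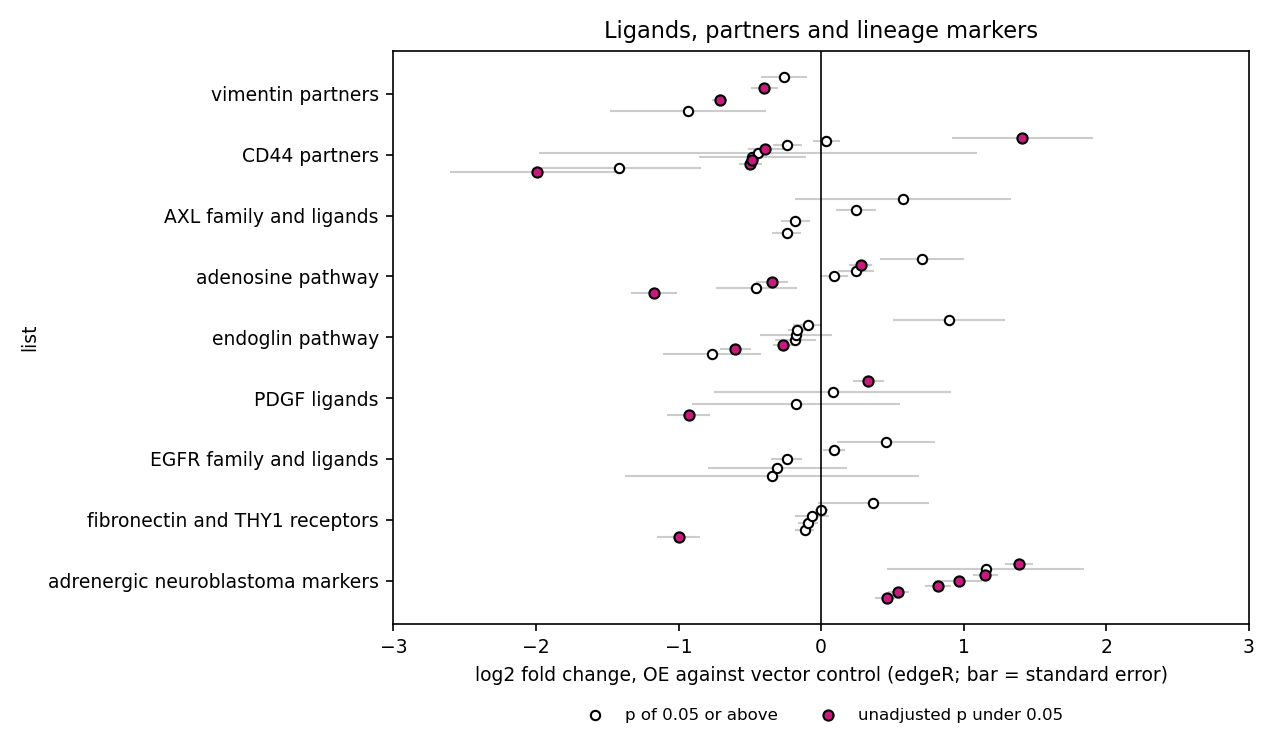
Log2FC (OE over vector control, edgeR) of the tested companion genes and lineage markers, 1 row per list, with bars for the standard error. The 4 tested partners of vimentin, of which *GFAP* had few counts, lie below 0 and the 7 tested adrenergic markers lie above it.

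Of 8 listed adrenergic markers, 7 were tested and *TH* had 0 counts in every library. All 7 were higher in both OE libraries (27.8% of all tested genes). Of these, 6 had an unadjusted p under 0.05 in edgeR (10.1%), where none was a DEG, and 5 were called higher in DESeq2 (4.35%). Their median Log2FC was 0.96. Their summed level was 500 and 542 CPM in the vector control libraries and 901 and 861 CPM in the OE libraries. *HAND2* had the highest mean at 274 CPM. Their part in the results for the members was not tested.

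Markers of other cell types were at or near 0. Of 9 genes found, 7 had 0 counts in all libraries. The summed level of the list was 0.644 and 1.28 CPM in vector control and 0.478 and 0.415 CPM in OE, and the highest gene was *EPCAM* with 8 to 30 counts.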

How the data were processed

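RNA of 4 libraries was prepared with the Illumina TruSeq RNA kit and sequenced as paired-end reads. The authors trimmed reads and aligned them to hg19 with Bowtie2 (2.0.4, per the submitters' processing notes), and deposited whole-number counts per Ensembl transcript for 196520 transcripts. The notes also name StringTie 2.1.6 and Picard 2.21.6 with no role, and the authors ran their differential tests in DESeq2. Which tool made the counts, the annotation release and the use of strand are not given in the sources used here. Counts were summed per gene. Genes were filtered with filterByExpr, normalized by TMM and tested with edgeR 4.0.16 (quasi-likelihood) in R 4.3.3, with Benjamini-Hochberg adjustment over 20528 genes. DESeq2 1.42.0 and limma 3.58.1 (voom) were alternatives. All were run on simulated counts with a lower dispersion than these data and larger changes than those of the members. That run cannot rank the tools on these data. Normalization factors were 0.976 to 1.02. Transcript shares carry Wilson 95% intervals. Annotation and sequences came from GRCh37 (GENCODE lift). Replicates differed far beyond sampling noise. The members and lists were chosen with earlier results of these data known. All members were named, with companions at an unadjusted p under 0.05, and the highest other gene of each list.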

Additional observations from a re-analysis of the deposited data

How the results depend on the processing

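Limma-voom and edgeR with RLE scaling gave 0 DEGs among all genes, members and companions, as edgeR did with TMM. DESeq2 called 1800 genes, of which 893 were higher and 907 lower, 2 members and 5 companions. Testing every gene with at least 1 count gave 9 DEGs, counting only the highest transcript of each gene gave 1, and an adjusted p under 0.05 gave 122, none of them a member. Leaving out each library in turn gave 0 DEGs each time. The replicate numbers did not pair the samples (correlation of the replicate differences -0.0133), and a fit with the replicate block gave 0 DEGs among all genes, members and companions. Direction changed for *FN1* (0.2065 with the highest transcript; -0.1455 to 0.0703 without single libraries, 0.0125 without OE replicate 2), *THY1* (-0.0724 with the highest transcript; -0.5518 to 1.2743 without single libraries), *PDGFRB* (-1.4828 to 0.4104 without single libraries) and *VIM* (-0.23 without ENST00000478317, an alternative chosen after seeing the data). The number of members with an unadjusted p under 0.05, counted after seeing the data, was 4 to 6 over the alternatives, beside 5 (1 higher, 4 lower). It was 3 higher and 3 lower without OE replicate 2 (6.91% and 9.82% of all genes) and 2 higher and 3 lower without vector control replicate 2 (8.84% and 7.54%). The causes were not tested. The highest transcript moved *ENG* from -0.46 to -14.30, fitted on 0 counts in OE. *VIM* could not be fitted with the highest transcript, ENST00000478317, which had 25991 counts in OE replicate 1 and 0 in each other library. Counts in a single library do not pass the filter.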
